A study of Mus musculus with 8 samples.

Results

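Collagens are the main fibrous proteins of the extracellular matrix, and the genes described here are the 44 protein-coding mouse genes whose symbol has the form of a collagen chain (Col, a type number, a and a chain number), of 54532 genes in the count table. By the form of their assemblies, 11 encode fibrillar chains, 8 basement membrane chains (6 of type IV plus Col15a1 and Col18a1) and 25 other chains. All 44 had at least 1 read and lay at the same GRCm38 coordinates in the GENCODE M21 annotation, and 37 passed the filter on low counts and were tested (10 fibrillar, 8 basement membrane and 19 other).

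The libraries came from pancreatic tumours of C57BL/6 mice, grown in the pancreas after KPC cells, cultured mouse cells of pancreatic ductal cancer, were implanted there. The mice were given either saline (the Saline group, 4 libraries) or TLQP21 (the TLQP21 group, 4 libraries), a fragment of the secreted protein VGF. The sample labels give 2 weeks as the length of treatment, and the series text gives 2 weeks as the time since implantation. All groups share the strain, the implanted line and the site of the tumour, and no dose, age or sex of the mice was stated in the sources used here. The labels do not say whether each library is a separate animal, so a p-value here reflects only how far these libraries spread, and part of that may be technical. Tumour cells and host stroma are both mouse, so their collagen RNA cannot be told apart in a whole tumour.

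Every collagen chain carries a stretch in which glycine recurs at regular steps of 3 residues, and 3 such chains wind into a triple helix. Fibrillar collagens (types I, II, III, V, XI, XXIV and XXVII) have one long helix and pack side by side into cross-striated fibrils. Type IV collagen has a helix with many breaks and joins at its ends into the sheet under epithelia and around vessels. Pancreatic ductal tumours are known for a dense stroma rich in types I and III, made chiefly by fibroblasts, with stellate cells of the pancreas as one source.

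The glycine repeat can be read in the exons, and its unbroken length sets the fibrillar class apart. The stretches below are the middle inner coding exon of the longest coding transcript of 5 abundant chains, from the GRCm38 genome with GENCODE M21 models, on the sense strand. Capitals mark in-frame glycine codons (GGN).
Col1a1, exon 26, chr11:94944355-94944408, plus strand: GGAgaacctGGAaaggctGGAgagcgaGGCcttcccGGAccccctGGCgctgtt
Col1a2, exon 27, chr6:4524117-4524170, plus strand: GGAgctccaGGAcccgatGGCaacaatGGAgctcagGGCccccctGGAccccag
Col3a1, exon 26, chr1:45334761-45334814, plus strand: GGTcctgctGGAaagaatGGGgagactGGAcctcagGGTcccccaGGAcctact
Col4a1, exon 27, chr8:11223576-11223668, minus strand: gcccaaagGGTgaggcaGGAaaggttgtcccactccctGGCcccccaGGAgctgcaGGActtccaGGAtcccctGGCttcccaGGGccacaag
Col6a1, exon 18, chr10:76717129-76717164, minus strand: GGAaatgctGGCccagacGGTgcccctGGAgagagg

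The 3 fibrillar exons shown are each 54 bases long, begin with a glycine codon and hold 6 glycine triplets with no gap. In the Col4a1 exon (93 bases, 8 glycine codons) the spacing is broken once. The short Col6a1 exon (36 bases) has 4 unbroken triplets. Over whole coding sequences, the longest unbroken run of glycine triplets was 216 to 344 in the fibrillar class (median 338, with Col24a1 at 216 and Col27a1 at 217), 30 to 66 in the basement membrane class (39 to 66 in its 6 type IV chains, 30 in Col15a1 and Col18a1) and 23 to 113 in the other class. The basement membrane and other classes overlapped in this measure. Exons of 54 bases made up 305 of 627 inner coding exons in the fibrillar class (48.6%), 16 of 361 in the basement membrane class (4.43%) and 148 of 929 in the other class (15.9%).

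Library totals lay between 28358465 and 33536087 counts, and the spread between libraries, not counting error, limits the abundant collagens. Levels within a gene are given as CPM, counts per library scaled to a common total with edgeR's trimmed-mean (TMM) factors. Libraries 1 and 2 of each group held reads of Xist, which coats the silenced X chromosome, and libraries 3 and 4 held reads of Y-linked genes. Ductal epithelial markers summed to 6271 to 6977 CPM in every library, and no listed marker of any cell type was at 0 in all 8. Saline 4 held the most acinar RNA (45618 CPM over 9 enzyme genes, against 8761 to 24924 CPM in the other 7 libraries), and Saline 2 held hepatocyte RNA (4465 CPM over 7 genes, against at most 9.27 CPM elsewhere). Saline 4 and TLQP21 4 stood apart in the collagens, as described below, and results that rest on them are given with and without them.

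Collagen RNA was a small and variable part of the tumours' RNA. All 44 genes together took 0.945, 0.886, 0.915 and 1.51% of counts in Saline 1 to 4 and 1.22, 1.05, 1.07 and 0.875% in TLQP21 1 to 4. Saline 4 was highest and TLQP21 4 lowest, and the groups overlapped. In whole tissue, fewer cells of a type and less RNA per cell cannot be told apart.

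Levels were compared between genes as TPM, which corrects counts for gene length. With the deposited gene length, Col1a1 was the most abundant collagen (873 ± 228 TPM, SD, n = 8), followed by Col3a1 (808 ± 181), Col1a2 (407 ± 76.9), Col4a1 (258 ± 39.8), Col18a1 (247 ± 30.7) and Col6a1 (195 ± 31.7). After these came Col4a2 (173 ± 23.2 TPM), Col5a2 (141 ± 12.03), Col5a1 (114 ± 26.3), Col15a1 (93.3 ± 11.2), Col6a2 (71.5 ± 13.9) and Col8a1 (67.0 ± 13.5). Col1a1 and Col3a1 did not differ beyond their spread, nor did Col4a1 and Col18a1. Col1a1, Col1a2 and Col3a1 together made up 59.7% of all collagen reads. At the low end, Col4a3, Col17a1 and Col6a4 lay at 0.307, 0.208 and 0.146 TPM among the tested genes.

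The order at the top depends on which length is used. The deposited length of Col1a2 is 12426 bases, whereas its longest coding transcript has 5348, and Col1a1 has 6563 and 5930. With transcript length in place of the deposited length, Col3a1 came first (999 ± 239 TPM), and Col1a1 (678 ± 188) and Col1a2 (663 ± 134) were level. The fold changes between groups do not use length and are not touched by this choice.

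The 7 collagens below the filter had between 3 and 47 reads over all 8 libraries. They were Col2a1 (29 reads) and Col9a1, Col9a2 and Col19a1 (3, 31 and 8 reads), Col22a1 (32 reads), Col25a1 (47 reads) and Col26a1 (17 reads). Col2a1, Col9a1 and Col9a2 encode chains of cartilage fibrils, and these totals are too low for any comparison between the groups.

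**Figure D1:**
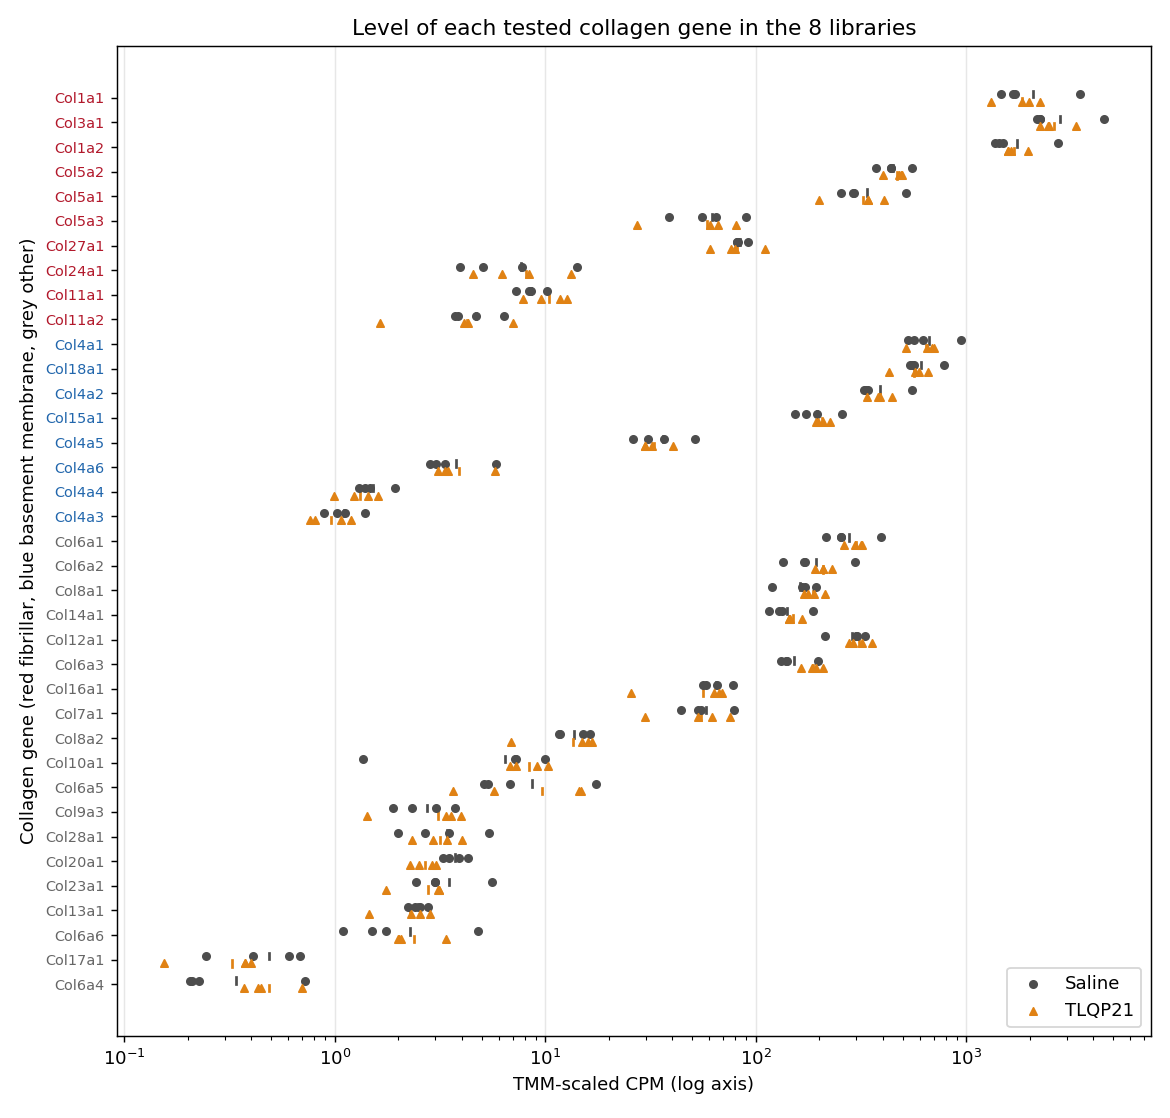
Level of the 37 tested collagen genes in every library, as TMM-scaled CPM on a log axis, with Saline as grey circles, TLQP21 as orange triangles and short bars at group means. Within each class genes are ordered by TPM, and the groups overlap for every gene but Col20a1.

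The comparison of TLQP21 with Saline asked which collagen transcripts differ in tumours treated with the peptide. None of the 37 tested collagens passed an adjusted p of 0.05 with edgeR's quasi-likelihood test, as was the case for all 18238 genes tested (0% higher and 0% lower). The smallest adjusted p among the collagens was 0.9999, against 0.238 among all genes. At an unadjusted p under 0.05, edgeR named 1 of 37 collagens (Col20a1), and 558 of all genes (3.06%). DESeq2 called 4 genes (0.0124%) and limma voom 1 gene (0.00548%), none of them a collagen. At an unadjusted p under 0.05, DESeq2 named 1 of 44 collagens, against 2.3% of all genes, and limma voom 4 of 37, against 10.6%.

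Fold changes were small in both directions. TLQP21 was above Saline for 16 of 37 collagens (43.2%), against 50.6% of all genes tested, and the median log2 fold change was -0.04, against 0.00 over all genes. By class, 3 of 10 fibrillar genes lay above 0 (median -0.06), 2 of 8 basement membrane genes (median -0.08) and 11 of 19 others (median 0.09). The 95% interval of the fold change lay wholly within 2-fold for 30 of 37 collagens (9 fibrillar, 8 basement membrane, 13 other), against 79.6% of all genes. It lay within 1.5-fold for only 11 of 37, against 55.1% of all genes, so a change of that size was not excluded for most collagens.

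**Figure D2:**
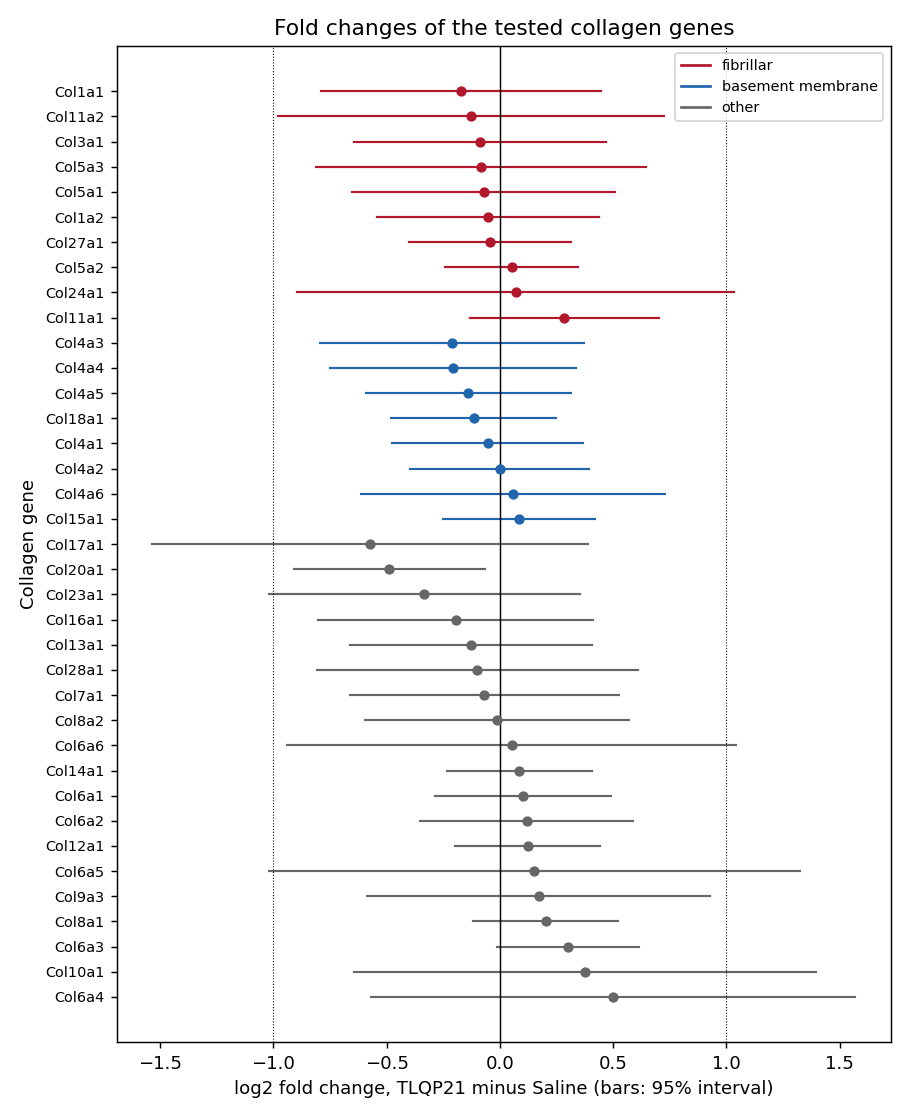
Log2 fold change of each tested collagen, TLQP21 minus Saline, with its 95% interval, grouped and coloured by class, with dotted lines at a 2-fold change. The interval excludes 0 for Col20a1 alone, and 30 of the 37 intervals lie between the dotted lines.

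The major fibril chains come first among the members by level. Col1a1 (chr11:94936224-94953042), the more numerous chain of type I collagen, measured 1709, 1669, 1466 and 3466 CPM in Saline 1 to 4. In TLQP21 1 to 4 it measured 2228, 1839.6, 1993 and 1316 CPM. Saline 4 stood far above the other 7 libraries, TLQP21 4 was the lowest of all 8, and the groups overlapped. The means were 2077 ± 932 and 1844 ± 387 CPM (SD, n = 4), with a log2 fold change of -0.17 (SE 0.28, 95% interval -0.79 to 0.45).

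Col1a2 (chr6:4504814-4541544), the other type I chain, measured 1486, 1362, 1431 and 2726 CPM in Saline and 1964, 1580.2, 1632 and 1576 CPM in TLQP21. Here TLQP21 4 was level with TLQP21 2 and 3, and 3 of 4 Saline libraries lay below every TLQP21 library. Its log2 fold change was -0.05 (SE 0.22, 95% interval -0.54 to 0.44).

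Col3a1 (chr1:45311538-45349706), whose homotrimer co-assembles with type I fibrils, measured 2234, 2177, 2246 and 4488 CPM in Saline and 3329, 2440.2, 2481 and 2236 CPM in TLQP21. The library labelled Saline 4 again stood far above the rest, and TLQP21 1 came next. The log2 fold change was -0.09 (SE 0.25, 95% interval -0.64 to 0.47).

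Type V chains start fibrils and set their width. Col5a1 measured 294, 288, 255 and 518 CPM in Saline and 405, 342, 342 and 201 CPM in TLQP21, a log2 fold change of -0.07 (SE 0.26). Col5a2 was the steadiest of the abundant fibrillar genes, with 438, 439.6, 371 and 551 CPM in Saline and 496, 477, 491 and 402 CPM in TLQP21 (log2 fold change 0.05, SE 0.13, 95% interval -0.24 to 0.35). Col5a3, the least abundant of these chains per length, measured 55.6, 64.9, 38.6 and 89.6 CPM in Saline and 80.9, 65.9, 60.5 and 27.1 CPM in TLQP21. The lowest value of Col5a1 and of Col5a3 was in TLQP21 4.

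The type XI chains, which share the nucleating role with type V, were low. Col11a1, a chain often described in activated tumour fibroblasts, measured 8.41, 7.25, 10.2 and 8.51 CPM in Saline and 7.80, 9.53, 12.7 and 11.8 CPM in TLQP21. It had the highest fold change of the fibrillar class (log2 0.28, SE 0.19, 95% interval -0.13 to 0.70), with groups that overlapped. Col11a2 measured 4.70, 3.85, 3.74 and 6.35 CPM in Saline and 4.28, 4.12, 7.04 and 1.64 CPM in TLQP21 (log2 fold change -0.13, SE 0.38). The remaining fibrillar genes, Col24a1 and Col27a1, had log2 fold changes of 0.07 and -0.04.

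Among basement membrane genes, Col4a1 and Col4a2 encode the chains of the common type IV molecule. The genes lie head to head on chromosome 8 (chr8:11198423-11312826, minus strand, and chr8:11312805-11449287, plus strand), with starts 21 bases apart. Col4a1 measured 564, 531, 621 and 949 CPM in Saline and 689, 654, 703 and 519 CPM in TLQP21. Its log2 fold change was -0.05 (SE 0.19, 95% interval -0.48 to 0.37). Col4a2 measured 328, 335, 339.7 and 550.1 CPM in Saline and 445, 383, 387 and 337 CPM in TLQP21, with both group means at 388 CPM and a 95% interval of -0.40 to 0.39. Both genes were highest in Saline 4.

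Col4a3, Col4a4 and Col4a5 form the network of the kidney glomerulus and a few other sites. Col4a3 and Col4a4, also a head-to-head pair (starts 72 bases apart), lay at 0.764 to 1.40 and 0.996 to 1.93 CPM over all libraries. Each had a log2 fold change of -0.21 (SE 0.26 and 0.24). Col4a5, on the X chromosome, measured 30.9, 26.1, 51.7 and 36.5 CPM in Saline and 29.7, 29.8, 40.3 and 32.0 CPM in TLQP21. Its highest library was Saline 3, not Saline 4, and its log2 fold change was -0.14 (SE 0.20).

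Col15a1 and Col18a1 encode basement membrane collagens whose C-terminal fragments, such as endostatin from Col18a1, are known to act on vessels. Col15a1 measured 196, 172, 153 and 256 CPM in Saline and 225, 209, 198 and 192 CPM in TLQP21 (log2 fold change 0.08, SE 0.15, 95% interval -0.25 to 0.42). Col18a1 (chr10:77052178-77166548) measured 542, 554, 562 and 785 CPM in Saline and 572, 595, 657 and 431 CPM in TLQP21. Its log2 fold change was -0.12 (SE 0.16, 95% interval -0.48 to 0.25). It overlaps Slc19a1 on the opposite strand by 8825 bases, and since the strand setting of the counting is not given in the sources used here, its counts are uncertain. The same doubt holds for other collagens, among them Col4a1 (Gm15418, 6081 bases), Col4a2 (Gm15419, 18707 bases) and Col5a1 (Gm13372, 5021 bases). These overlaps are of whole gene spans, not of exons.

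Type VI collagen forms beaded filaments around cells, and all 6 of its genes lay above 0 (median log2 fold change 0.13). Without Saline 2 it was 2 of 6 (median -0.01), and without Saline 4 all 6 (median 0.42), so the size and sign rest on single libraries. Col6a1 measured 253, 215, 253 and 391 CPM in Saline and 316, 261, 295 and 321 CPM in TLQP21 (log2 fold change 0.10, SE 0.17). Col6a2 measured 172, 135, 170.0 and 296 CPM in Saline and 231, 192, 208 and 208 CPM in TLQP21 (log2 fold change 0.12, SE 0.21). Col6a3 measured 140.1, 132, 139.6 and 198 CPM in Saline and 209, 164, 185 and 193 CPM in TLQP21. For Col6a3, 3 of 4 Saline libraries lay below every TLQP21 library, and Saline 4 lay within the TLQP21 range. Its log2 fold change was 0.30 (SE 0.14, 95% interval -0.01 to 0.62, unadjusted p = 0.0581, edgeR adjusted p = 0.9999).

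A single tested collagen, Col20a1, had groups without overlap, with TLQP21 lower. Among all genes 302 had such groups (1.66%), 154 of them lower (0.844%) and 148 higher (0.811%). Col20a1 (chr2:180986535-181018363) encodes a fibril-associated collagen of the kind with interrupted helices. It measured 3.27, 4.31, 3.5005 and 3.90 CPM in Saline (mean 3.74 ± 0.457, SD, n = 4) and 3.01, 2.27, 2.89 and 2.50 CPM in TLQP21 (2.67 ± 0.341). The log2 fold change was -0.49 (SE 0.19, 95% interval -0.91 to -0.06, unadjusted p = 0.028), and the edgeR adjusted p was 0.9999. The log2 fold change lay between -0.55 and -0.41 when each library was left out in turn. Groups without overlap keep their order whichever library is left out, so this is no separate sign of stability. The unadjusted edgeR p rose to 0.085 without Saline 2 and to 0.084 without TLQP21 2.

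Col8a1 and Col8a2 encode short-chain collagens that form a network in vessel walls and the cornea. Col8a1 measured 171, 166, 194 and 120.0 CPM in Saline and 170.1, 177, 212 and 189 CPM in TLQP21 (log2 fold change 0.20, SE 0.14, 95% interval -0.12 to 0.52). Unlike the type I and III genes, Col8a1 was lowest in Saline 4. Col8a2 measured 15.1, 11.6, 11.8 and 16.4 CPM in Saline and 16.6, 15.98, 14.9 and 6.89 CPM in TLQP21, lowest in TLQP21 4 (log2 fold change -0.01, SE 0.26).

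The 3 tested transmembrane collagens all lay below 0 (median log2 fold change -0.33), and 1 of 3 did so without Saline 4 and TLQP21 4 together (median 0.08). Col17a1, the collagen of epithelial hemidesmosomes, measured 0.408, 0.245, 0.686 and 0.605 CPM in Saline and 0.376, 0.374, 0.398 and 0.154 CPM in TLQP21. Its log2 fold change was -0.57 (SE 0.43, 95% interval -1.54 to 0.39), and it lay under 1 CPM in every library. That value moved to -0.36 without Saline 3 and -0.34 without TLQP21 4, to -0.23 without Saline 4 and TLQP21 4 together, to -0.05 with limma voom and to 0.18 in the libraries with Xist reads (-1.06 in those with Y-linked reads). The 19 genes of the other class ranged from this value to 0.50 for Col6a4.

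Col10a1, a short-chain collagen of growth cartilage, is named here after its values were seen. It measured 7.22, 7.28, 9.92 and 1.36 CPM in Saline and 7.25, 10.3, 9.13 and 6.76 CPM in TLQP21. Saline 4, the library with the most type I and III collagen RNA, held the least Col10a1 RNA. The gene overlaps Nt5dc1 on the opposite strand by 7105 bases, so its counts are uncertain. The sum of the listed cartilage and bone markers was highest in Saline 4 (270.5 CPM, against 151 to 230 CPM in the other libraries). Nearly all of it came from Sox9 and Acan, while Comp, Ibsp, Bglap and Matn1 had group means of at most 1.68 CPM. The sum is therefore not read as a sign of cartilage or bone cells. Which cells gave the Col10a1 values was not tested.

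The summed level of a class shows how much rests on single libraries. Fibrillar genes summed to 6317, 6097, 5912 and 11959.5 CPM in Saline and to 8604, 6844, 7134 and 5839.9 CPM in TLQP21. Means were 7571 ± 2930.1 and 7106 ± 1142 CPM (SD, n = 4), a ratio of 0.938, which became 1.23 without Saline 4 and TLQP21 4. Basement membrane genes summed to 1666, 1625, 1736 and 2583 CPM in Saline and 1969.6, 1876, 1991 and 1517 CPM in TLQP21, a ratio of 0.966, or 1.16 without the same libraries. The other class summed to 1332, 1245, 1305 and 1652 CPM in Saline and 1529, 1454, 1526 and 1507 CPM in TLQP21, a ratio of 1.09, or 1.16 without them. Within the collagen RNA of a library, the fibrillar share lay between 65.9% (TLQP21 4) and 73.8% (Saline 4).

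**Figure D3:**
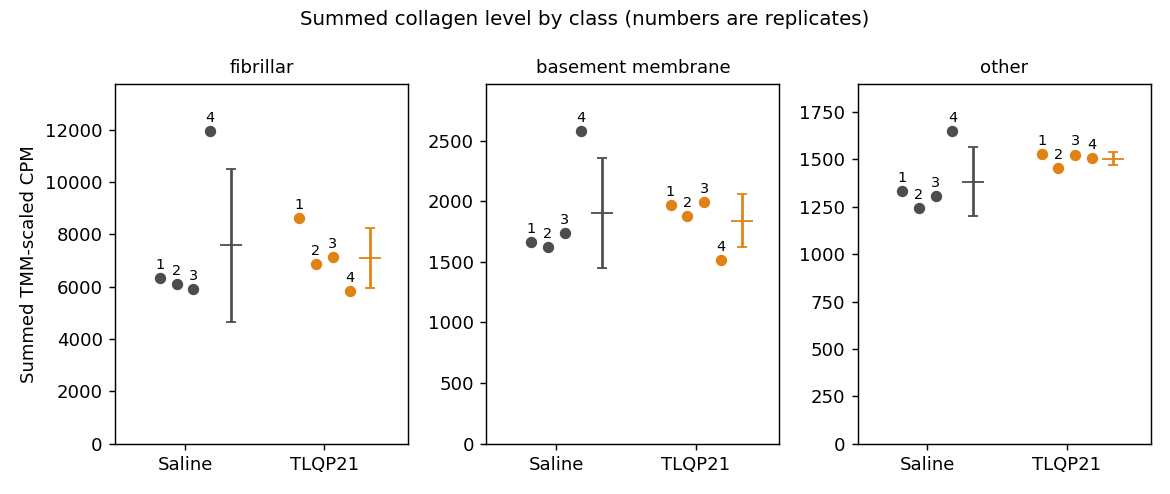
Summed TMM-scaled CPM of fibrillar, basement membrane and other collagens in each library, with replicate numbers beside the points and mean ± SD (n = 4) beside each group. Saline 4 is the highest library in all 3 panels, and TLQP21 4 is the lowest in the fibrillar and basement membrane panels.

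Saline 4 was the highest of the 8 libraries for 18 of 37 collagens (7 of 10 fibrillar, 4 of 8 basement membrane, 7 of 19 other), against 16.5% of all genes. TLQP21 4 was the lowest for 14 of 37 (5, 2 and 7), against 27.2% of all genes. Measured as the distance of a gene's log2(CPM + 0.1) from its own mean over all libraries, the fibrillar median was 0.68 in Saline 4, 0.24 in TLQP21 1 and -0.33 in TLQP21 4. For basement membrane genes these medians were 0.24, 0.19 and -0.18, and all 8 genes were below their mean in TLQP21 4.

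**Figure D4:**
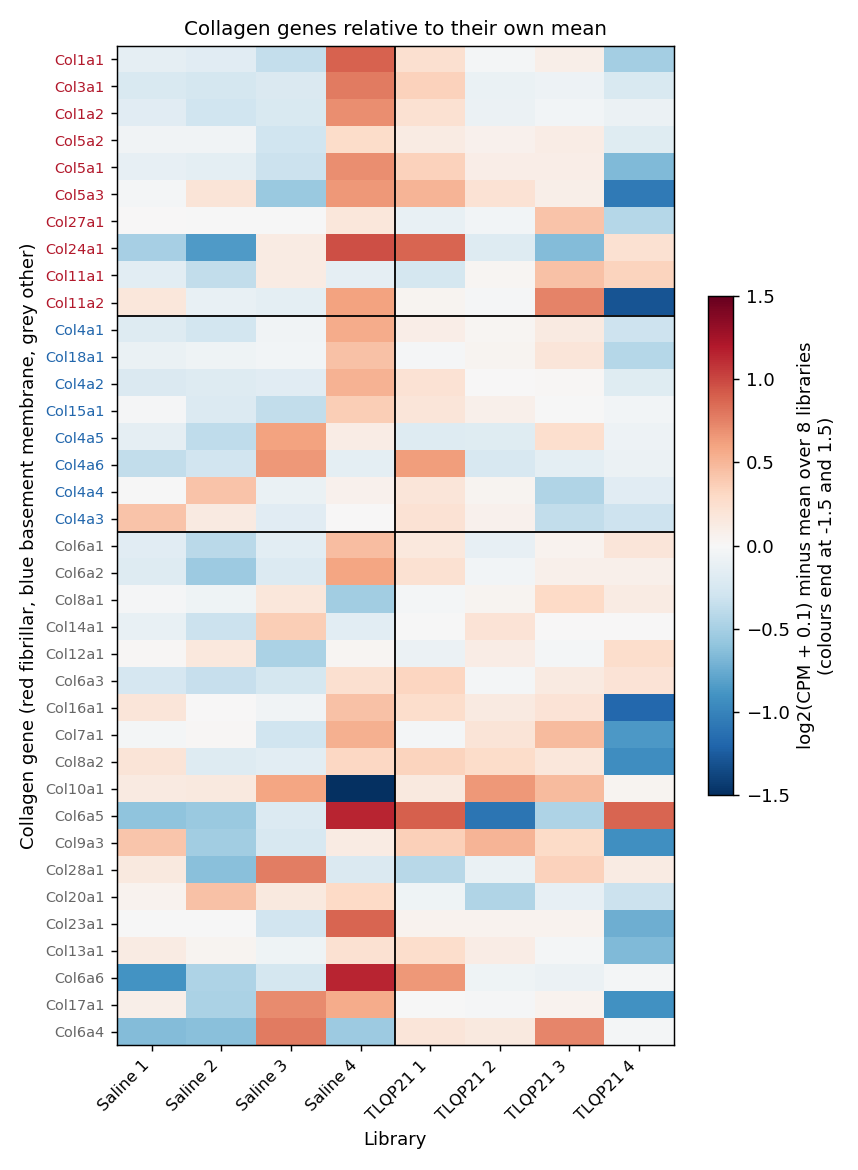
Each tested collagen's log2(CPM + 0.1) minus its mean over the 8 libraries, in red where higher and blue where lower, with genes by class in rows and libraries in columns. The Saline 4 column is red for 9 of 10 fibrillar genes, and the TLQP21 4 column is blue for 8 of 10 fibrillar and all 8 basement membrane genes.

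Leaving out these libraries turned the direction of the fibrillar class. They were chosen after Saline 4 was seen to be often the highest and TLQP21 4 often the lowest for these genes. Leaving out such libraries raises the fold changes of those genes by itself, so the turn is a description and not a separate result. Without Saline 4 and TLQP21 4 together, 31 of 37 collagens lay above 0, against 49.2% of all genes. The fibrillar median was then 0.31 and the basement membrane median 0.09. At an unadjusted edgeR p under 0.05 there were 11 of 37 collagens, against 771 of all 18345 genes tested, and none passed edgeR's adjusted threshold. Without Saline 4 alone 27 of 37 lay above 0 (49.4% of all genes), and without TLQP21 4 alone 25 of 37 (49.5%).

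The split by Xist and Y-linked reads gave opposite directions. Among libraries 1 and 2, with Xist reads, TLQP21 lay above Saline for 30 of 37 collagens (48.9% of all genes), with class medians of 0.27 (fibrillar), 0.17 (basement membrane) and 0.25 (other). Among libraries 3 and 4, with Y-linked reads, it did so for 6 of 37 (50.8% of all genes), with medians of -0.45, -0.29 and -0.26. Saline 4 and TLQP21 4 are both in the latter set, so the split and these libraries cannot be told apart. Between TLQP21 3 and Saline 3 alone, 1 library per group, the summed levels were higher in TLQP21 3 in every class. They were 7134 against 5912 CPM (fibrillar), 1991 against 1736 CPM (basement membrane) and 1526 against 1305 CPM (other). In edgeR's test of the difference between the sets, no collagen passed (smallest adjusted p 0.842), nor did any of 18238 genes (0%), with 876 genes at an unadjusted p under 0.05 (4.8%).

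Levels in TLQP21 4 followed the GC content of the transcript. Across 15593 genes, the rank correlation between GC content and a gene's distance from its own mean was -0.580 in TLQP21 4, and across 35 collagens it was -0.758. In Saline 4 the values were 0.372 and 0.417, and in the other libraries they lay between -0.161 and 0.303 for all genes and between -0.263 and 0.257 for collagens. These are descriptions across genes of one library, and genes are not independent replicates. In TLQP21 4 all genes were split by GC content into 10 equal bins, and the median distance was 0.32 in the lowest bin (41.8% or less) and -0.49 in the highest (58.1% or more). Collagens at or above the collagen median of 55.7% GC (19 genes) had a median distance of -0.51 there, and the other 18 had -0.01.

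**Figure D5:**
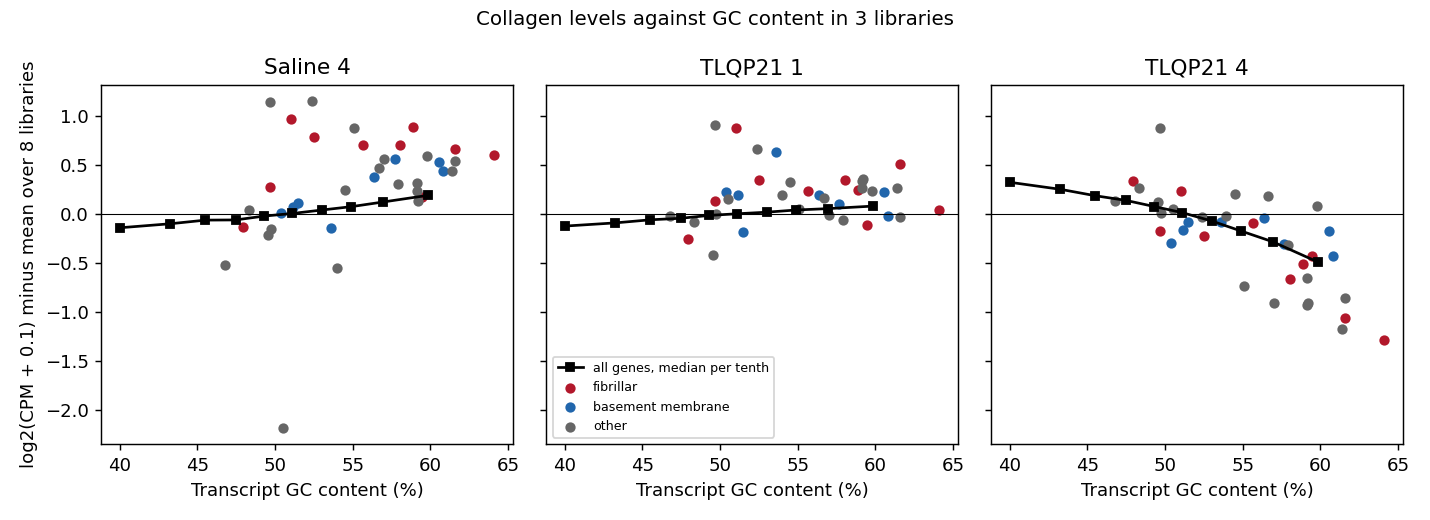
Distance of each tested collagen from its own mean, log2(CPM + 0.1), against transcript GC content in 3 libraries, coloured by class, with black squares for the median of all genes in each of 10 GC bins. In TLQP21 4 collagens lie lower at higher GC content, as all genes do, and in Saline 4 30 of 37 collagens lie above 0.

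With each library's GC trend taken out as an offset, 23 of 37 collagens lay above 0 (49.5% of all genes), and none passed. In Saline 4, 30 of 37 collagens lay above their mean. The 19 collagens of higher GC content had a median distance of 0.52 there, and the other 18 had 0.05, although some of the latter were high (Col3a1, with 52.5% GC, at 0.78).

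Chains of one molecule were compared within libraries, since a ratio of counts cancels the total, and its spread rather than its size is read here. The ratio of Col4a1 to Col4a2 in CPM lay between 1.54 and 1.83 over all 8 libraries (a 1.19-fold range), and that of Col6a1 to Col6a2 between 1.323 and 1.59 (1.2-fold). The ratio of Col1a1 to Col1a2 ran from 0.835 in TLQP21 4 to 1.27 in Saline 4 (1.52-fold). Corrected by the deposited length it was 2.21 ± 0.204 in Saline and 2.06 ± 0.328 in TLQP21 (SD, n = 4), and by transcript length 1.05 ± 0.0971 and 0.982 ± 0.156.

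Some other pairs varied more. Col5a1 to Col5a2, whose transcripts differ by 8.37 percentage points of GC, spanned a 1.89-fold range of CPM ratios. For Col8a2 to Col8a1 (12.4 points) the range was 3.75-fold, and for Col11a2 to Col11a1 (16.1 points) it was 5.38-fold. In all 3 pairs the ratio was lowest in TLQP21 4 and highest in Saline 4. For Col4a5 to Col4a6 (-2.17 points, first minus second) the range was 2.35-fold, and for Col4a3 to Col4a4 (-0.729 points), which rest on few reads, it was 1.72-fold. It was 1.66-fold for Col5a3 to Col5a1 (3.58 points), 1.36-fold for Col3a1 to Col1a1 (-6.39 points) and 1.31-fold for Col6a3 to Col6a1 (-2.17 points). The part of GC content in these ranges was not tested.

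Summed fibroblast, endothelial, acinar and macrophage markers were high in the same libraries as type I and III genes. The 12 listed fibroblast markers summed to 423, 402, 355 and 488 CPM in Saline 1 to 4 and 544, 434, 399 and 420.4 CPM in TLQP21 1 to 4. The 8 endothelial markers summed to 196, 208, 205 and 305 CPM in Saline and 282, 213, 205 and 239 CPM in TLQP21. Saline 4 and TLQP21 1 were the top libraries for both lists, as they were for Col1a2 and Col3a1. The acinar sum had the same top libraries, with 45618 CPM in Saline 4, 24924 CPM in TLQP21 1 and at most 20060 CPM elsewhere. So did the macrophage sum, with 1040 CPM in Saline 4, 1127 CPM in TLQP21 1 and at most 989 CPM elsewhere. The order was therefore not particular to fibroblast and endothelial markers. Not every marker followed. Of the fibroblast markers, Pdgfra, Pdgfrb, Pdpn, Dpt, Pi16 and Clec3b had these same top libraries, and Thy1, Fap, Lrrc15, Cdh11, Twist1 and Prrx1 did not. Cdh11, a fibroblast cadherin, was lowest of all in Saline 4 (53.4 CPM, against 54.1 to 70.3 CPM in the other 7). Twist1 was lowest in TLQP21 1 (11.3 CPM), and Lrrc15 was highest in TLQP21 4 (34.2 CPM). The 8 smooth muscle and pericyte markers summed to 273, 239, 300.2 and 317 CPM in Saline and 348, 337, 319 and 307 CPM in TLQP21, so Saline 4 lay below TLQP21 1, 2 and 3. No marker of these lists was at 0, and the part of these cells in the collagen levels was not tested.

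Genes that make, cross-link, bind and cut collagen were described from gene lists, and edgeR called none of them. Of 18 genes for folding and modification of the chains, 11 lay above 0 (median log2 fold change 0.03). P4hb, the shared subunit of prolyl 4-hydroxylase, measured 1375 ± 89.9 CPM in Saline and 1351 ± 47.3 in TLQP21, a log2 fold change of -0.03 (SE 0.09). P4ha3, a catalytic subunit of the same enzyme, and Plod3, a lysyl hydroxylase, had log2 fold changes of 0.16 and -0.10.

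Of 13 genes for propeptide cleavage and cross-linking, 12 were tested and 7 lay above 0 (median 0.02). Bmp1, the C-propeptidase, had a log2 fold change of 0.00 (SE 0.11), Loxl2, a lysyl oxidase, 0.22 (SE 0.13), and Adamts3, an N-propeptidase, 0.40 (SE 0.47). Of 12 proteoglycans and matrix proteins found with fibrils, 9 lay above 0 (median 0.05). Fn1, which encodes fibronectin, measured 3424 ± 538 and 3626 ± 417 CPM, and Thbs2 had a log2 fold change of 0.21. Postn, which encodes periostin, measured 241 ± 48.5 and 311 ± 51.9 CPM (log2 fold change 0.37, SE 0.16, unadjusted p = 0.0478, edgeR adjusted p = 0.9999).

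Of 10 collagen receptors, 5 lay above 0 (median 0.02). Itgb1 and Itga1, which pair into a collagen-binding integrin, had log2 fold changes of 0.15 (SE 0.11) and 0.22 (SE 0.12). Gp6, the platelet collagen receptor, lay at 0.700 ± 0.367 and 0.201 ± 0.182 CPM, and its log2 fold change of -1.78 (SE 0.73) rests on few reads.

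All 6 collagen-degrading protease genes lay below 0 (median log2 fold change -0.20), and 3 of 6 without Saline 4 (median -0.07). Mmp8, the neutrophil collagenase, measured 9.39, 8.58, 6.18 and 18.4 CPM in Saline and 6.88, 4.23, 8.17 and 5.03 CPM in TLQP21 (log2 fold change -0.81, SE 0.34). Mmp9, a gelatinase, measured 51.1, 52.0, 46.2 and 108 CPM in Saline and 58.1, 39.9, 32.4 and 31.7 CPM in TLQP21 (log2 fold change -0.67, SE 0.29). Both were highest in Saline 4, their groups overlapped, and the edgeR adjusted p was 0.9999 for each. Mmp14, the membrane-bound collagenase, had a log2 fold change of -0.06 (SE 0.11).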

How the data were processed

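Tumour RNA was sequenced in 8 libraries as 150-base read pairs, and groups and replicate numbers were taken from the sample titles. The authors deposited raw counts per gene, not normalised, with a gene length. The tools named in the submitters' processing notes are featureCounts 1.5.0-p3, HISAT2 2.0.5 and DESeq2 1.32.0, with build GRCm38 (mm10). The strand setting and the annotation release are not given in the sources used here.

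These counts were compared between the groups with the quasi-likelihood test of edgeR 4.0.16 (R 4.3.3), after its default filter by group and TMM scaling and without covariates. Benjamini-Hochberg adjustment ran over all 18238 genes tested, with a threshold of 0.05. Other tools were limma 3.58.1, as voom with quality weights per sample, and DESeq2 1.42.0. CPM (counts scaled to equal library totals, with TMM factors) describes a gene across libraries, and TPM compares genes. Library totals were 28358465 to 33536087 counts, and no pair of libraries was a duplicate (lowest chi-square per degree of freedom 21.2).

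Collagens named were the 12 highest by TPM, 4 per class with the smallest unadjusted p, those whose groups did not overlap, and the partners of a named chain. From each pathway list, the 2 genes with the smallest unadjusted p and the most abundant gene were named. Collagen classes, pathway lists and cell type markers, including those of mesothelial, nerve, fat, macrophage, red blood and islet cells, were chosen with earlier results of these data known, as were the members. Alternatives covered scaling, filters, tools, a replicate block, the split by Xist and Y-linked reads, acinar genes left out, protein-coding genes only, equal depth and each library left out. A GC offset, transcript lengths, and leaving out Saline 4 and TLQP21 4 together were added after seeing the data.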

Additional observations from a re-analysis of the deposited data

Results flagged for a closer look

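Of 50 groups of 4 libraries checked (the named collagens and the class sums), 11 had a library whose gap to its nearest neighbour took more than 0.829 of the group's whole range, and chance alone flags about 1 in 20 groups. Saline 4 was that library for 9 of them, high each time. It measured 3466 CPM for Col1a1, 2726 for Col1a2, 4488 for Col3a1, 518 for Col5a1, 550.1 for Col4a2, 785 for Col18a1 and 198 for Col6a3. Summed fibrillar genes reached 11959.5 CPM there, against 5912 to 6317 in the other Saline libraries, and summed basement membrane genes 2583 CPM, against 1625 to 1736. These 9 groups share 1 library, so they are not separate signs.

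In the TLQP21 group, TLQP21 1 was high for Col1a2 (1964 CPM, against 1576 to 1632 in the other 3 libraries). TLQP21 4 was low for Col17a1 (0.154 CPM, against 0.374 to 0.398).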

How the results depend on the processing

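No gene passed edgeR's threshold under any other scaling, filter, covariate, replicate block or left-out library (leave-one-out range 0 to 0), whereas DESeq2 called 4 genes and limma 1. Of 37 collagens, 16 lay above 0, and 10 to 27 did so with single libraries left out (lowest without Saline 2, highest without Saline 4). The count was 28 with limma, 31 without Saline 4 and TLQP21 4 together, 30 in the libraries with Xist reads and 6 in those with Y-linked reads. The fibrillar median was 0.31 without Saline 4 and TLQP21 4, -0.45 in the Y-linked libraries, and -0.17 to 0.19 with single libraries left out. The basement membrane median was 0.094 without both, 0.17 with Xist reads, -0.29 with Y-linked reads and -0.11 to 0.01 with single libraries left out. The median of the other class was -0.26 in the Y-linked libraries and -0.02 to 0.11 with single libraries left out. The cause of these shifts was not tested.

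Fold changes near 0 changed sign. With limma these were Col18a1 (0.052), Col1a1 (0.070), Col1a2 (0.091), Col3a1 (0.086), Col4a1 (0.16), Col4a2 (0.14), Col5a1 (0.17), Col5a3 (0.14) and Col8a2 (0.22). Without Saline 4 and TLQP21 4 together they were Col11a2 (0.32), Col18a1 (0.13), Col1a1 (0.32), Col1a2 (0.27), Col3a1 (0.31), Col4a1 (0.25), Col4a2 (0.27), Col5a1 (0.37), Col5a3 (0.38) and Col8a2 (0.30). With the GC offset they were Col18a1 (0.0029), Col4a1 (0.017), Col4a2 (0.14), Col5a3 (0.00031) and Col8a2 (0.037). Upper-quartile scaling turned Col4a2 (0.017) and Col8a2 (0.0066), the covariate for the split by Xist and Y-linked reads turned Col4a2 (0.011), and protein-coding genes alone turned Col4a2 (0.0049). With single libraries left out, the log2 fold change ran from -0.48 to 0.13 for Col11a2, -0.013 to 0.24 for Col15a1, -0.20 to 0.023 for Col18a1, -0.31 to 0.19 for Col1a1, -0.16 to 0.24 for Col1a2, -0.22 to 0.24 for Col3a1, -0.15 to 0.16 for Col4a1, -0.074 to 0.21 for Col4a2, -0.27 to 0.082 for Col4a5, -0.20 to 0.20 for Col5a1, -0.028 to 0.16 for Col5a2, -0.28 to 0.15 for Col5a3, -0.0034 to 0.31 for Col6a1, -0.019 to 0.39 for Col6a2 and -0.12 to 0.21 for Col8a2.

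The labels do not tie a replicate number to an animal or a day, and the data did not settle whether the numbers pair the libraries. The deviations of equal numbers correlated at 0.115, 0.194, 0.271 and -0.053 (numbers 1 to 4), equal numbers also share the kind of sex-linked reads, and not every library correlated best with its own number. With the replicate number as a block, 18 of 37 collagens lay above 0, 0 genes passed, and Col1a2 (0.0081) and Col4a2 (0.031) changed sign. Collagens at under about 1 CPM, such as Col17a1, Col4a3 and Col6a4, rest on few reads.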

Other observations

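Chains of one genomic neighbourhood were also read side by side. Col3a1 and Col5a2 lie 24614 bases apart on chromosome 1, and Col6a1 and Col6a2 lie 85161 bases apart on chromosome 10. Col4a5 and Col4a6 form one more head-to-head pair, on the X chromosome, with starts 1309 bases apart, yet the ratio of Col4a5 to Col4a6 in CPM ran from 5.16 in TLQP21 1 to 12.1 in TLQP21 3 (a 2.35-fold range). This is wider than the 1.19-fold range of the Col4a1 and Col4a2 pair, at lower counts.

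The other marker lists are given here as ranges over the libraries of each group. Mesothelial markers (5 genes) summed to 464 to 568 CPM in Saline and 448 to 549.7 CPM in TLQP21. Nerve markers (6 genes) summed to 12.3 to 16.8 CPM and 12.8 to 16.8 CPM. Adipocyte markers (4 genes) lay at 5.94 to 8.75 CPM and 3.45 to 20.8 CPM, with the highest sum in TLQP21 4. Macrophage markers (5 genes) summed to 937 to 1040.4 CPM in Saline and 762 to 1127 CPM in TLQP21. Their top libraries were TLQP21 1 and then Saline 4, as for the fibroblast list. Haemoglobin genes (4 genes) summed to 456 to 1245 CPM in Saline and 292 to 585 CPM in TLQP21, and islet hormone genes (4 genes) to 103 to 368 CPM and 175 to 249.6 CPM.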
